A study of Mus musculus with 8 samples.

Results

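Interleukin receptor genes are described here in muscle pericytes and smooth muscle cells (SMCs) of the mouse. A gene was taken as a member when its symbol started with Il, digits and the letter r, or when it was Il6st. The rule takes the symbol alone and uses no measured value. It also takes Il1rn, which encodes the soluble IL-1 receptor antagonist and is no receptor, and 1 gene of the pattern is not reported here. There were 42 members among 37979 listed genes, and all 42 were tested.

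The mice were Ai14+/-;SM22α-Cre+ animals of both sexes, 3 to 4 months old, whose hindlimb muscles were dissociated, and which received no treatment that the labels or methods name. Every animal of both groups carried both transgenes, so no group lacked Cre or the reporter. The Ai14 allele makes the red protein tdTomato once Cre has acted, and Cre was driven by the SM22α promoter, so a cell stays labeled even if it later stops using that promoter. Pericytes were sorted as PDGFRβ+tdTomato- cells and SMCs as PDGFRβ+tdTomato+ cells, both low for DAPI and negative for CD31 and CD45. Each of the 4 pericyte and 4 SMC libraries pooled cells of multiple sorts. Values are FPKM, fragments scaled to transcript length and to the mapped reads of the library, a level per length that can be set side by side between genes.

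An interleukin receptor is built from chains in the cell membrane that come together around the ligand. Chains of the cytokine receptor class I and II families carry JAK kinases that phosphorylate STAT factors, whereas chains of the IL-1 and IL-17 families recruit adaptors such as MyD88 and Act1. Many chains are shared. Il2rg is the common gamma chain of the receptors for IL-2, IL-4, IL-9, IL-15 and IL-21, and Il6st encodes gp130, the common chain for IL-6, IL-11 and IL-27. T cells, B cells and NK cells are known for the gamma chain and IL-12 groups of receptors, while fibroblasts and vessel wall cells are known for the IL-11, IL-1, IL-13 and IL-17 receptors, and the members were grouped into 12 lymphoid, 8 stromal, 11 broad or myeloid and 11 epithelial, neuronal or soluble genes. The classes were drawn up with earlier results of these data known. The lymphoid class also holds Il10ra and both IL-18 receptor chains, while Il4ra and Il15ra, which work with the gamma chain, stand among the broad genes because many other cells use them.

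Many class I chains share a short motif, tryptophan, serine, any residue, tryptophan, serine, near the membrane. A box of 15 bases that codes for it was found in the longest coding sequence of 14 of the 42 members, against 0.369% of 22737 genes when every coding sequence of a gene was searched (GENCODE version M1, mouse genome NCBI Build 37). The other members, among them Il23r, Il27ra, Il3ra and Il5ra, had no exact box in their longest coding sequence. Codons of the motif were read in frame on the coding strand. The boxes are shown because they sit in genes of both directions. Capitals mark the bases of the fixed residues and lower case marks the codon that is free to vary, all written 5′ to 3′.
Il2rb: TGGAGTcccTGGAGC
Il2rg: TGGAGTaaaTGGAGC
Il21r: TGGAGTgagTGGAGT
Il9r: TGGAGTgagTGGAGC
Il12rb1: TGGAGTgatTGGAGC
Il12rb2: TGGAGTaatTGGAGT
Il6ra: TGGAGCgaaTGGTCC
Il4ra: TGGAGTgagTGGAGT
Il6st: TGGAGTgacTGGAGT
Il11ra1: TGGAGCgccTGGAGC
Il11ra2: TGGAGCgccTGGAGC
Il13ra1: TGGAGTgatTGGAGT
Il13ra2: TGGAGCgaaTGGAGT
Il31ra: TGGAGCaagTGGAGC
In the test given in the next paragraph, the first 7 of these genes were higher in pericytes (against 10.6% of all genes tested), Il11ra1 and Il13ra1 were higher in SMCs (against 11.2%), and the other 5 did not pass. Il11ra1 and Il11ra2 had the same box, and 1286 of their 1299 coding bases (99.0%) were identical, so reads of one can be given to the other and the level of each is uncertain.

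The test used log2(FPKM + 1) and limma with Benjamini-Hochberg adjustment (q value) over 27414 genes, and log2 fold changes are pericyte over SMC on that scale, which understates the change of genes with low FPKM. At a q value below 0.05, 15 members were higher in pericytes (35.7%, against 10.6% of all genes tested) and 8 were higher in SMCs (19.0%, against 11.2%). With a log2 fold change beyond 2 as well, 11 members were pericyte-enriched (26.2%, against 3.24% of genes) and 2 were SMC-enriched (4.76%, against 2.66%). The SMC-enriched count was 1 without pericyte replicate 3, SMC replicate 3 or SMC replicate 4, up to 3 with another library left out, and 4 with a pseudocount of 0.1. No overlap, with all pericyte libraries on the higher side, was seen for 15 members (12.1% of all genes), and the reverse held for 10 members (12.5% of all genes). The median log2 fold change of the members was 0.17, with a range from -2.88 to 5.38, and that of all genes was 0.02. All 23 members that passed had a mean of at least 1 FPKM in a group, which 33 members reached. A low gene that passed had to be high in a group, so the count over members that reached this level is no support for a difference.

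By family, to be read against the same shares of 10.6% and 11.2%, 5 of 7 common gamma chain genes and 5 of 9 genes of the gp130 and IL-12 group were higher in pericytes, with 1 of each higher in SMCs. The IL-1 and IL-18 family had 3 and 2 of 10, the IL-17 family 1 and 2 of 5, the IL-10 and interferon type family 1 and 1 of 7, and the IL-13 and common beta group 0 and 1 of 4. The plot of members in each library shows the spread behind these counts.

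**Figure D1:**
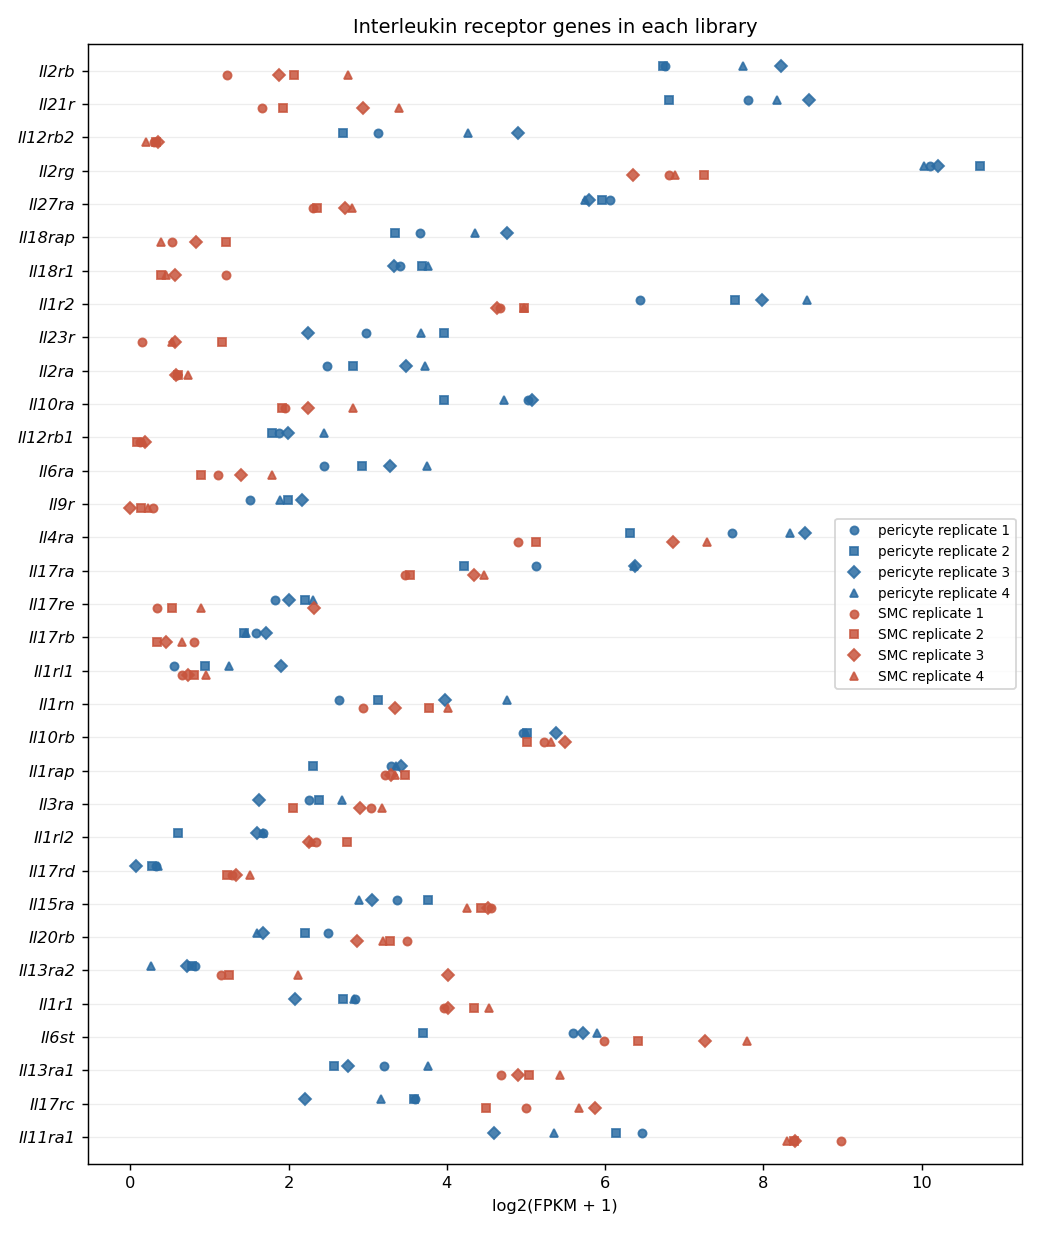
Level of the 33 interleukin receptor genes that reached a mean of 1 FPKM in a group, as log2(FPKM + 1) on the x axis, with 1 marker for each of the 4 pericyte (blue) and 4 SMC (red) libraries and genes ordered by log2 fold change. Blue markers lie to the right of all red ones from Il2rb to Il9r and at Il17rb, and red markers lie to the right of all blue ones in 10 genes such as Il11ra1.

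Markers of other cells moved with the groups as well. The summed FPKM of 7 T cell markers was 1615 to 2513 in pericyte libraries and 26.6 to 40.7 in SMC libraries, and all 7 were higher in pericytes. The 6 B cell markers summed to 830.5 to 2027 and 9.91 to 32.6 FPKM, and the 6 NK cell markers to 243 to 392 and 3.41 to 6.74 FPKM, again with all 6 of each list higher in pericytes. Ptprc, which encodes the CD45 that the sort removed, had 80.6 to 230.3 FPKM in pericytes and 4.34 to 11.9 FPKM in SMCs (limma log2 fold change 4.24, q = 4.0e-04). Pecam1, which encodes the CD31 that the sort also removed, had 25.0 to 59.7 FPKM in pericytes and 102 to 301 FPKM in SMCs (limma log2 fold change -2.06, q = 0.00873). Tagln, which encodes SM22α, had 165 to 551 FPKM in pericytes and 500 to 1569 FPKM in SMCs, with groups that overlapped (limma q = 0.110). In the SMC libraries, 4 of 6 endothelial markers (217 to 751 FPKM summed, against 48.6 to 102 in pericytes) and 5 of 6 fibroblast markers (3257 to 4486 FPKM, against 798 to 1642) were higher. The sixth fibroblast marker, Dcn, went the other way, with 1165, 1115, 509 and 571 FPKM in pericytes, and was listed at 0 in all 4 SMC libraries. Without Dcn the fibroblast markers summed to 226 to 477 FPKM in pericytes. Mural markers summed to 586 to 1877 FPKM in pericytes and 1776 to 5615 FPKM in SMCs, with 1 of 8 passing, and Pdgfrb itself had 3.21 to 17.6 FPKM in pericytes and 15.6 to 91.5 FPKM in SMCs (limma q = 0.0973). Macrophage markers (149 to 276 FPKM in pericytes and 251 to 391 in SMCs) were higher in SMCs in 3 of 6 cases, and mast cell markers (42.6 to 70.8 and 3.25 to 19.3 FPKM) were higher in pericytes in 2 of 6. Neutrophil markers varied most within groups, from 551 to 3902 FPKM in pericytes and from 253 to 3041 FPKM in SMCs. Muscle fiber markers summed to between 26.1 and 44.3 FPKM in all libraries. Of these 6, Mylpf was higher in pericytes (log2 fold change 1.01, limma q = 0.0108) and 5 did not pass. The part of these other cells in the receptor results was not tested. In such bulk samples, fewer cells of a type and less RNA per cell cannot be told apart.

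The genes classed as lymphoid were all higher in pericytes. This count is a description, since the class was drawn up with earlier results known and is no independent evidence of a direction. All 12 genes passed the test (against 10.6% of all genes), 10 of them were pericyte-enriched (against 3.24%), and in all 12 the groups did not overlap (against 12.1%). Their median log2 fold change was 3.09 (range 1.73 to 5.38), against 0.02 for all genes. Their FPKM summed to 1572 to 2048 in pericyte libraries and to 102 to 168 in SMC libraries. Their median levels on the log2(FPKM + 1) scale were 4.12 in pericytes and 0.86 in SMCs. These genes made up 62.8% to 81.1% of the summed FPKM of all members in a pericyte library and 10.4% to 20.2% in an SMC library. All of the T, B and NK cell markers moved the same way, as given above.

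Of the common gamma chain group, 5 genes belonged to this class. Il2rg (chromosome X, 98459717 to 98463594, minus strand, NCBI Build 37) had 1101, 1704, 1182 and 1041 FPKM in pericyte replicates 1 to 4 and 111, 151, 80.4 and 117 FPKM in SMC replicates 1 to 4. It was the most abundant member in pericytes, at 1257 ± 303 FPKM (SD, n = 4), and the third most abundant in SMCs, at 115 ± 29.1 FPKM, with a log2 fold change of 3.45 (SE 0.23, limma q = 8.6e-05). The annotated span of Il2rg overlaps Gm20489 on the same strand. Il2rb, the signaling chain that the IL-2 and IL-15 receptors share (chromosome 15, 78310983 to 78325496, minus strand), had 107, 105, 298 and 214 FPKM in pericytes and 1.34, 3.19, 2.67 and 5.76 FPKM in SMCs. The lowest pericyte library thus held many times the level of the highest SMC library, and the log2 fold change of 5.38 (SE 0.45, limma q = 2.4e-04) was the highest of all members.

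Il21r, the IL-21 receptor (chromosome 7, 132746943 to 132777084, plus strand), followed with 222, 111, 379 and 287 FPKM in pericytes and 2.17, 2.82, 6.69 and 9.497 FPKM in SMCs. Replicates 3 and 4 were the highest in both groups, and the groups were far apart (log2 fold change 5.35, SE 0.51, limma q = 4.1e-04). Il2ra, the chain that gives the IL-2 receptor its high affinity, was much lower, at 4.58, 6.05, 10.2 and 12.2 FPKM in pericytes and 0.501, 0.515, 0.492 and 0.661 FPKM in SMCs (log2 fold change 2.50, SE 0.27, limma q = 7.1e-04). Il9r, the IL-9 receptor chain, had 1.85, 2.98, 3.48 and 2.73 FPKM in pericytes and 0.217, 0.101, 0 and 0.164 FPKM in SMCs (log2 fold change 1.73, SE 0.14, limma q = 2.4e-04). It was the lowest of the group in pericytes and its log2 fold change was below 2, although no library overlapped. In the 4 pericyte libraries the means ran from Il2rg through Il21r, Il2rb and Il2ra to Il9r. The spreads of Il21r and Il2rb between libraries overlapped (249.7 ± 113 and 181 ± 93.0 FPKM, SD, n = 4), but Il21r was above Il2rb in every pericyte library.

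The chains of the IL-12 and IL-23 receptors were also higher in pericytes. Il12rb2, the chain of the IL-12 receptor that recruits STAT4, had 7.73, 5.45, 28.8 and 18.2 FPKM in pericytes and 0.230, 0.253, 0.274 and 0.151 FPKM in SMCs. Pericyte replicates 3 and 4 held the higher values, while the SMC libraries were all below 0.3 FPKM (log2 fold change 3.45, SE 0.47, limma q = 0.00197). Il12rb1, the chain common to the IL-12 and IL-23 receptors, had 2.69, 2.47, 2.99 and 4.45 FPKM in pericytes and 0.0607 to 0.143 FPKM in SMCs (log2 fold change 1.89, SE 0.14, limma q = 1.5e-04). Il23r, which pairs with it, had 6.89, 14.6, 3.73 and 11.8 FPKM in pericytes and 0.108, 1.23, 0.478 and 0.441 FPKM in SMCs (log2 fold change 2.62, SE 0.40, limma q = 0.00346). The order of the pericyte libraries differed between the partners of IL-12 and IL-23, since replicate 3 was the highest for Il12rb2 and the lowest for Il23r.

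Il27ra, the specific chain of the IL-27 receptor, varied little between pericyte libraries. It had 65.9, 61.1, 54.4 and 52.8 FPKM in pericytes and 3.95, 4.14, 5.55 and 5.997 FPKM in SMCs. Its log2 fold change of 3.34 had an SE of 0.14, and its limma q value of 1.5e-05 was the lowest of the 42 members. Its gene overlaps Palm3 on the other strand, and whether reads were counted by strand is not given in the sources used here. Il10ra, the ligand-binding chain of the IL-10 receptor, had 31.7, 14.6, 32.8 and 25.5 FPKM in pericytes and 2.89, 2.77, 3.72 and 6.06 FPKM in SMCs (log2 fold change 2.47, SE 0.31, limma q = 0.00133). Both chains of the IL-18 receptor belonged here too. Il18r1, the binding chain, had 9.61, 11.8, 9.11 and 12.6 FPKM in pericytes and 1.32, 0.315, 0.483 and 0.364 FPKM in SMCs (log2 fold change 2.89, SE 0.20, limma q = 1.1e-04). Il18rap, the accessory chain, had 11.6, 9.14, 26.2 and 19.4 FPKM in pericytes and 0.442, 1.32, 0.778 and 0.310 FPKM in SMCs (log2 fold change 3.29, SE 0.34, limma q = 6.2e-04). For both chains every pericyte library was above every SMC library.

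Among the stromal receptors, calls were in the other direction. Of the 8 genes, 5 were higher in SMCs (against 11.2% of all genes) and the other 3 did not pass. Of the 5, 2 (Il11ra1 and Il17rc) were SMC-enriched (against 2.66% of all genes). Il17rc lost its call with the replicate number as a block. Its log2 fold change came within 2 of 0 with some single libraries left out (up to -1.81). In 7 of 8 the SMC libraries all lay above the pericyte libraries (against 12.5% of all genes). Their median log2 fold change was -1.62 (range -2.88 to -0.01). Their FPKM summed to 88.2 to 161 in pericytes and to 493 to 654 in SMCs, which was 3.02% to 7.59% and 58.6% to 69.1% of the summed FPKM of all members. The endothelial and fibroblast markers that passed also lay higher in SMCs, Dcn excepted, as given above.

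**Figure D2:**
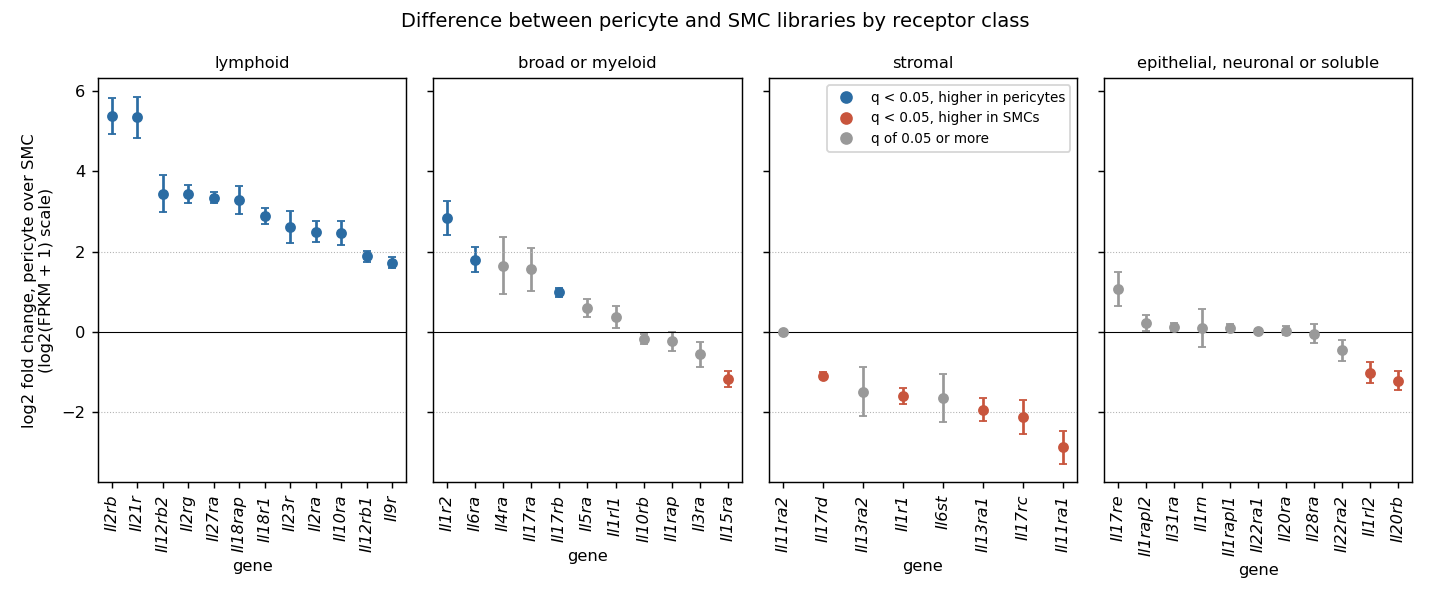
Log2 fold change (pericyte over SMC, on the log2(FPKM + 1) scale) of each member in 4 panels by receptor class, with bars of 1 SE from limma, blue for a q value below 0.05 and higher in pericytes, red for higher in SMCs and gray for the rest. All 12 lymphoid genes lie above 0 in blue, and 5 of 8 stromal genes lie below 0 in red.

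Il11ra1, the ligand-binding chain for IL-11 (chromosome 4, 41647021 to 41716347, plus strand), was the member with the highest level in SMCs. It had 87.3, 69.2, 23.3 and 40.0 FPKM in pericytes and 505, 333, 336 and 314 FPKM in SMCs. SMC replicate 1 stood above the other SMC libraries, and the lowest SMC library was still far above the highest pericyte library. The mean was 54.9 ± 28.7 FPKM in pericytes and 372 ± 89.3 FPKM in SMCs (SD, n = 4), with a log2 fold change of -2.88 (SE 0.41, limma q = 0.00246). Its annotated span overlaps several genes, among them Galt on the same strand and Dctn3 on the other. Il6st, the gp130 chain that completes the IL-11 receptor (chromosome 13, 113265216 to 113297068, plus strand), had 47.5, 12.03, 51.6 and 58.7 FPKM in pericytes and 62.5, 84.4, 152 and 221 FPKM in SMCs. The groups did not overlap, but the spread was wide and the gene did not pass (log2 fold change -1.63, SE 0.60, limma q = 0.102). It passed when genes below 1 FPKM in 5 or more libraries were left out before the fit (limma q = 0.0313).

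Il13ra1, the chain that joins Il4ra in the IL-13 receptor (chromosome X, 33652105 to 33711254, plus strand), had 8.26, 4.95, 5.76 and 12.6 FPKM in pericytes and 24.7, 32.0, 28.9 and 42.2 FPKM in SMCs (log2 fold change -1.94, SE 0.28, limma q = 0.00283). Il13ra2, which binds IL-13 with high affinity and is known as a decoy, had 0.766, 0.717, 0.651 and 0.197 FPKM in pericytes and 1.22, 1.38, 15.1 and 3.36 FPKM in SMCs. SMC replicate 3 was far above the other SMC libraries, and the gene did not pass (log2 fold change -1.49, SE 0.62, limma q = 0.146). Il1r1, the signaling receptor for IL-1, had 6.14, 5.46, 3.25 and 6.12 FPKM in pericytes and 14.6, 19.3, 15.1 and 22.0 FPKM in SMCs (log2 fold change -1.60, SE 0.21, limma q = 0.00168).

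Il17rc, the partner of Il17ra for IL-17A and IL-17F, had 11.1, 11.0, 3.64 and 7.96 FPKM in pericytes and 30.9, 21.5, 57.5 and 49.8 FPKM in SMCs (log2 fold change -2.12, SE 0.41, limma q = 0.0102). Replicates 3 and 4 were the highest in SMCs and the lowest in pericytes. The call was lost when the replicate number was fitted as a block (limma q = 0.0553). Il17rd, known as Sef and as an inhibitor of FGF signaling, was low in both groups, with 0.0499 to 0.271 FPKM in pericytes and 1.44, 1.33, 1.52 and 1.87 FPKM in SMCs (log2 fold change -1.09, SE 0.09, limma q = 2.7e-04). Il11ra2 reached no more than 0.0170 FPKM in any library and did not pass.

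The broad and myeloid receptors showed no common direction. Of 11 genes, 3 were higher in pericytes (against 10.6% of all genes), 1 was higher in SMCs (against 11.2%) and 7 did not pass, with a median log2 fold change of 0.60. Il1r2, the decoy receptor that binds IL-1 without signaling, had 85.6, 198, 252 and 375 FPKM in pericytes and 24.4, 30.4, 23.9 and 30.5 FPKM in SMCs (log2 fold change 2.84, SE 0.42, limma q = 0.00291). With the pseudocount of 1 it was the only gene outside the lymphoid class that was pericyte-enriched. With a pseudocount of 0.1, Il6ra was pericyte-enriched too (log2 fold change 2.32, limma q = 0.00464). Il6ra, the ligand-binding chain for IL-6, had 4.44, 6.59, 8.76 and 12.4 FPKM in pericytes and 1.16, 0.866, 1.65 and 2.45 FPKM in SMCs (log2 fold change 1.80, SE 0.31, limma q = 0.00578). Il17rb, the chain for IL-25, had 2.00, 1.70, 2.28 and 1.76 FPKM in pericytes and 0.265 to 0.747 FPKM in SMCs (log2 fold change 0.99, SE 0.12, limma q = 0.00120). Il15ra, which binds IL-15 and presents it to other cells, was the gene of this class that was higher in SMCs. It had 9.35, 12.6, 7.28 and 6.43 FPKM in pericytes and 22.5, 20.7, 22.0 and 18.1 FPKM in SMCs (log2 fold change -1.17, SE 0.19, limma q = 0.00446).

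Il4ra, the chain that both IL-4 receptors use, was abundant in both groups. It had 194, 78.7, 368 and 321 FPKM in pericytes and 28.7, 33.96, 115 and 156 FPKM in SMCs. Pericyte replicate 2 fell within the SMC range, and the gene did not pass (log2 fold change 1.65, SE 0.72, limma q = 0.165). Il17ra, the chain common to the IL-17 receptors, had 33.9, 17.6, 82.0 and 81.3 FPKM in pericytes and 10.1, 10.6, 19.4 and 21.2 FPKM in SMCs (log2 fold change 1.57, SE 0.54, limma q = 0.0836). Without pericyte replicate 2 its limma q value was 0.0207. In both genes replicates 3 and 4 were higher than replicates 1 and 2 in each group. With the replicate number as a block both genes passed (limma q = 0.0315 for Il4ra and 0.0210 for Il17ra). Il10rb, the chain common to the receptors for IL-10 and IL-22, had nearly the same level in both groups, at 33.2 ± 4.90 FPKM in pericytes and 37.6 ± 5.33 FPKM in SMCs (SD, n = 4; log2 fold change -0.17, SE 0.14, limma q = 0.470). It overlaps Ifnar2 on the same strand. Il1rap, the accessory chain for IL-1, IL-33 and IL-36, also overlapped between groups, at 7.93 ± 2.67 and 9.10 ± 0.766 FPKM (SD, n = 4; limma q = 0.598). Il3ra, the IL-3 chain, had 2.09 to 5.38 FPKM in pericytes and 3.16 to 8.04 FPKM in SMCs (limma q = 0.284). Il1rl1, the IL-33 receptor ST2, had 0.468 to 2.73 and 0.574 to 0.937 FPKM (limma q = 0.422).

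Among the 11 epithelial, neuronal or soluble genes, 2 were higher in SMCs (against 11.2% of all genes) and 9 did not pass. Il20rb, a chain for IL-20 and IL-24, had 4.64, 3.63, 2.19 and 2.05 FPKM in pericytes and 10.3, 8.69, 6.26 and 8.16 FPKM in SMCs (log2 fold change -1.21, SE 0.23, limma q = 0.00947). Il1rl2, the IL-36 receptor, had 2.20, 0.518, 2.04 and 2.21 FPKM in pericytes and 4.09, 5.69, 3.78 and 3.89 FPKM in SMCs (log2 fold change -1.02, SE 0.26, limma q = 0.0318). The call for Il1rl2 was lost in 9 of 17 other settings, among them leaving out any of 6 single libraries. Il17re, the chain for IL-17C, had 2.56, 3.61, 3.004 and 3.96 FPKM in pericytes and 0.270, 0.440, 4.002 and 0.857 FPKM in SMCs. A single SMC library, replicate 3, lay above all pericyte libraries, and without it the limma q value went from 0.129 to 0.00293. The antagonist gene Il1rn had 5.23, 7.77, 14.7 and 26.1 FPKM in pericytes and 6.70, 12.7, 9.20 and 15.2 FPKM in SMCs, and the groups overlapped (log2 fold change 0.10, SE 0.48, limma q = 0.912).

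The other 9 members stayed below a mean of 1 FPKM in both groups and none passed, although Il5ra, the IL-5 chain, had an unadjusted limma p value of 0.0281 (q = 0.101). They were Il5ra, Il1rapl2, Il31ra, Il1rapl1, Il22ra1, Il20ra, Il11ra2, Il28ra and Il22ra2. The highest single value among them was 1.55 FPKM, for Il22ra2 in SMC replicate 4. Il22ra1 was listed at 0 in all 4 SMC libraries and in 3 of 4 pericyte libraries. FPKM give no number of reads, so no limit can be set on what such a low value may hide.

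Set side by side, the levels gave each group its own order. In pericytes Il2rg was followed by Il21r, Il4ra, Il1r2 and Il2rb, at means of 249.7, 240.4, 228 and 181 FPKM whose spreads overlapped. In SMCs Il11ra1 was followed by Il6st (130.05 ± 71.8 FPKM), Il2rg (115 ± 29.1 FPKM) and Il4ra (83.3 ± 62.3 FPKM), whose spreads between libraries overlapped (SD, n = 4). Within each SMC library Il6st was above Il4ra, while the place of Il2rg relative to them differed between libraries. Il2rg alone made up 38.5% to 67.5% of the summed FPKM of the members in a pericyte library and 8.25% to 18.2% in an SMC library. Il11ra1 made up 0.797% to 4.11% and 28.1% to 54.5%.

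Bulk libraries cannot show whether the chains of a receptor are made by the same cell. The 17 complexes listed here were therefore described by the chain with the lowest FPKM in each library. For 6 complexes (IL-2, IL-9, IL-12, IL-18, IL-21 and IL-23) every chain was higher in pericytes. For none was every chain higher in SMCs. These counts are descriptions, since Il2rg and Il12rb1 each stand in more than 1 of the 6 complexes. All chains of the 6 belong to the lymphoid class, which was drawn up with earlier results known. Of all single genes tested, 10.6% were higher in pericytes and 11.2% in SMCs, and no such share was computed for complexes. The IL-15 complex was the 1 complex whose chains passed in opposite directions, with Il15ra higher in SMCs and Il2rb and Il2rg higher in pericytes. The lowest chain of the IL-21 receptor was Il21r in each group, with a median of 254 FPKM in pericytes and 4.76 FPKM in SMCs. That of the IL-2 receptor was Il2ra, with medians of 8.12 and 0.508 FPKM. The IL-12 and IL-23 receptors were both lowest at Il12rb1, with medians of 2.84 and 0.107 FPKM.

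Complexes with stromal chains went in both directions. The lowest chain of the IL-11 receptor had a median of 31.6 FPKM in pericytes and 118 FPKM in SMCs, and that of the IL-13 and type II IL-4 receptor had medians of 7.01 and 30.4 FPKM. That of the IL-1 receptor had medians of 5.045 and 8.97 FPKM. The type I IL-4 receptor, in which Il4ra pairs with Il2rg and which has no chain of the stromal class, had medians of 257 and 57.2 FPKM. Its values overlapped between groups, with 78.7 FPKM in pericyte replicate 2 and 117 FPKM in SMC replicate 4. The difference between the types was not tested. The IL-6 receptor was lowest at Il6ra, with medians of 7.68 FPKM in pericytes and 1.40 FPKM in SMCs, although its other chain Il6st was lower in every pericyte library than in any SMC library. The IL-27 receptor, which also uses Il6st, had lowest-chain medians of 49.5 and 4.84 FPKM. The IL-17A and IL-17F receptor also had values that overlapped between groups, with medians of 9.498 and 14.97 FPKM. They were set by Il17rc in every pericyte library and by Il17ra in every SMC library.

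**Figure D3:**
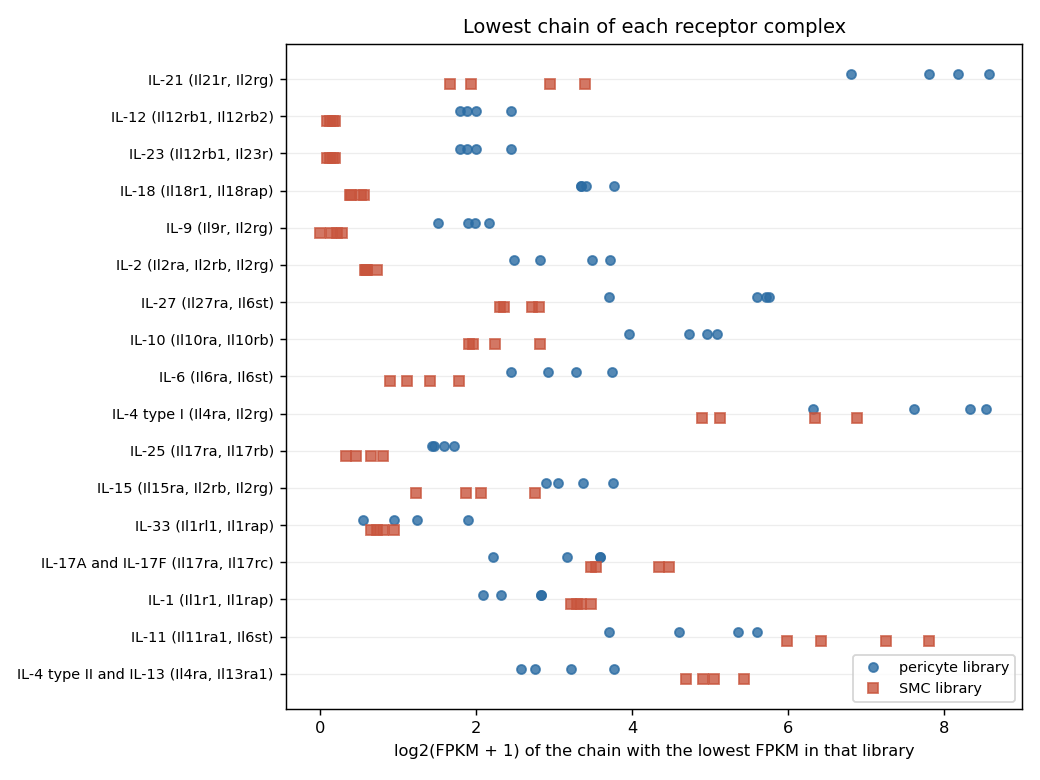
For each of 17 receptor complexes (chains in brackets), the x axis gives log2(FPKM + 1) of the chain with the lowest FPKM in a library, with a circle for each of 4 pericyte libraries and a square for each of 4 SMC libraries. Circles lie to the right of all squares for IL-21, IL-12, IL-18 and IL-2 among others, and squares lie to the right of all circles for IL-11, IL-13 and IL-1.

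Of the members, 20 lie within 200 kb of another member, in 12 neighboring pairs. The longest run is on chromosome 1, where 6 genes of the IL-1 and IL-18 families follow each other on the plus strand with no other protein-coding gene between them. In order they are Il1r2 (40141613 to 40182064), Il1r1 (40281925 to 40373043), Il1rl2 (40381472 to 40422316), Il1rl1 (40486415 to 40522260), Il18r1 (40522397 to 40557699) and Il18rap (40572207 to 40608550). The first was higher in pericytes, the next pair was higher in SMCs, Il1rl1 did not pass, and the last pair was higher in pericytes. The direction thus turned inside the run, between Il1r2 and Il1r1, which are 99.9 kb apart. The decoy Il1r2 and the signaling receptor Il1r1 bind the same ligands, and their log2 fold changes were 2.84 and -1.60. The directions also differed for Il2ra and Il15ra, 12.1 kb apart on chromosome 2. Il12rb2 and Il23r, 46.7 kb apart on chromosome 6, were both higher in pericytes. Il17rc, higher in SMCs, starts 0.675 kb after Il17re, which did not pass. Over the 12 pairs, 3 had both genes passing in 1 direction and 2 had them passing in opposite directions. The pair of Il1r1 and Il1rl2 is among the 3, and Il1rl2 lost its call in 9 of 17 other settings. Of all single genes tested, 10.6% were higher in pericytes and 11.2% in SMCs. The share for neighboring pairs of all genes was not computed, so these counts show nothing particular to neighbors.

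**Figure D4:**
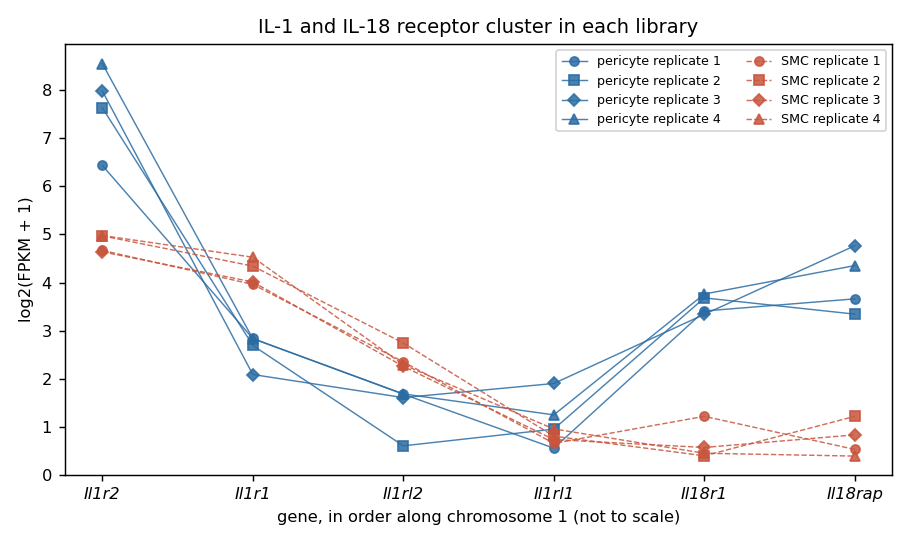
Level of the 6 neighboring IL-1 and IL-18 receptor genes of chromosome 1 as log2(FPKM + 1) on the y axis, in genome order on the x axis (not to scale), with 1 line for each of 4 pericyte (blue, solid) and 4 SMC (red, dashed) libraries. Pericyte lines run above all SMC lines at Il1r2, Il18r1 and Il18rap and below them at Il1r1 and Il1rl2.

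Start site sequence was looked at for members that moved together. RefSeq (GRCm38.p6) gave the 250 bases before the first listed start of 35 members, 11 of them higher in pericytes and 8 higher in SMCs. Each was searched on both strands for TTCNNNGAA (bound by STAT factors), TGTGGT (RUNX factors) and CAGGAAG (ETS factors), none of which contains another. TTCNNNGAA was in 2 of 11 and 0 of 8, against 7.18% of 27025 windows of all genes. TGTGGT was in 3 of 11 and 1 of 8 (14.2% of all windows), and CAGGAAG was in 2 of 11 and 2 of 8 (10.5%). Such matches are descriptions of letters only. The windows of Il2rg and Il21r, with high levels in pericytes, and of Il11ra1, highest in SMCs, are shown with matches of any of the 3 motifs, on either strand, in capitals. They lie at chrX:101268256-101268505 (minus strand), chr7:125603179-125603428 (plus strand) and chr4:41760193-41760442 (plus strand).
Il2rg: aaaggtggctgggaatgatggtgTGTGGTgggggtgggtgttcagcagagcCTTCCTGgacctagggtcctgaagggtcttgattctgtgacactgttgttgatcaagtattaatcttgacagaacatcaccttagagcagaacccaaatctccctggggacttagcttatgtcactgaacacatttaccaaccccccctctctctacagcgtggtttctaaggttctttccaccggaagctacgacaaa
Il21r: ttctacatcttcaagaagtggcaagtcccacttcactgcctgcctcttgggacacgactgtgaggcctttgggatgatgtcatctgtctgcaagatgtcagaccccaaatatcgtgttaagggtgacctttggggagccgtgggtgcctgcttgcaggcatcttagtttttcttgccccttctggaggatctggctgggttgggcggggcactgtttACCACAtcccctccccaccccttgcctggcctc
Il11ra1: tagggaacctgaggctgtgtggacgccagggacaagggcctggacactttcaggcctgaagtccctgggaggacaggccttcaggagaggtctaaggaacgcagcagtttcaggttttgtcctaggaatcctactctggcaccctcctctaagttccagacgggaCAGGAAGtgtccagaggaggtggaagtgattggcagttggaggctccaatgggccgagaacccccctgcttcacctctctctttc
The Il2rg window held TGTGGT and CAGGAAG, that of Il21r held TGTGGT, and that of Il11ra1 held CAGGAAG.

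The values of same-numbered replicates were set beside each other. In all 23 members that passed, the groups did not overlap. The sign of their fold change was thus fixed to be the same in replicates 1 and 2 as in replicates 3 and 4. That sameness is no further support. In 6 members (14.3%, against 8.46% of all genes) replicates 3 and 4 were higher than replicates 1 and 2 in both groups, namely Il21r, Il12rb1, Il6ra, Il4ra, Il17ra and Il6st. The reverse held for Il1rapl2 and Il20rb (4.76%, against 12.9%). The labels give all 8 libraries 1 batch value, but each library pooled multiple sorts. What sets these replicates apart was not tested. Pericyte replicate 2 also stood apart, with an FPKM sum of 1190435 against 656405 to 782014 in the other 7 libraries. Among other members, it held the lowest pericyte value of Il6st, Il4ra, Il17ra, Il10ra, Il1rap and Il1rl2 and the highest of Il2rg, Il23r and Il15ra. Relative depth, estimated from the ratios of FPKM under 0.3, where the steps between values reflect single fragments, differed by up to 1.23-fold between libraries, and 12713 to 13194 genes reached 1 FPKM.

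The genes around the receptors were taken from lists of partners, ligands and signaling proteins. Counts in these lists are to be read against 10.6% of all genes higher in pericytes and 11.2% higher in SMCs. Of 11 partner receptors with other names, 3 were higher in SMCs and 1 in pericytes. Lifr, Osmr and Lepr encode relatives of gp130 for LIF, oncostatin M and leptin, and all were SMC-enriched. Lepr had 1.55 ± 0.634 FPKM in pericytes and 22.6 ± 8.52 FPKM in SMCs (SD, n = 4), with a log2 fold change of -3.16 (limma q = 6.9e-04). Osmr had 6.18 ± 2.08 and 35.7 ± 14.8 FPKM (log2 fold change -2.31, limma q = 0.00284), and Lifr had 5.09 ± 2.22 and 24.6 ± 6.15 FPKM (log2 fold change -2.11, limma q = 0.00148). Crlf2, the TSLP receptor chain, had 15.4 ± 5.52 FPKM in pericytes and 6.03 ± 0.907 FPKM in SMCs (log2 fold change 1.18, limma q = 0.0108).

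Among signaling genes, 2 of 4 JAK kinases were higher in pericytes and the other 2 did not pass. Stat4, the factor downstream of the IL-12 receptor, had 52.7, 50.5, 97.4 and 90.5 FPKM in pericytes and 1.51, 2.32, 1.67 and 2.64 FPKM in SMCs (log2 fold change 4.56, limma q = 4.8e-05). Both IL-12 receptor chains were higher in pericytes too. Jak1 passed narrowly although the groups overlapped (245 ± 95.5 and 92.7 ± 22.8 FPKM, limma q = 0.0466), and Jak2 had 7.93 ± 0.630 and 4.31 ± 0.568 FPKM (limma q = 0.00155). Of 8 SOCS genes, whose proteins inhibit JAK signaling, Socs2 was higher in SMCs at 72.8 ± 5.62 FPKM against 18.7 ± 4.29 FPKM in pericytes (SD, n = 4; log2 fold change -1.93, limma q = 2.3e-04), and Socs4 and Socs7 were higher in pericytes (log2 fold changes 1.03 and 0.53). Of 8 adaptors of the IL-1 and IL-17 receptors, Irak2 (log2 fold change 1.81) and Traf3ip2, which encodes Act1 (1.33), were higher in pericytes, and Myd88 (-0.85) was higher in SMCs.

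Of 37 ligand genes that were tested, 9 were higher in SMCs (against 11.2% of all genes), 3 were higher in pericytes (against 10.6% of all genes) and 25 did not pass. Il6 had 29.7, 34.7, 44.8 and 75.3 FPKM in pericytes and 206, 217, 392 and 615 FPKM in SMCs (log2 fold change -2.87, limma q = 0.00321). Il33, an alarmin of stromal cells, had 2.35 ± 1.18 and 26.9 ± 8.96 FPKM (SD, n = 4; log2 fold change -3.08, limma q = 5.6e-04), while its receptor Il1rl1 did not pass. Il34, a ligand of the CSF1 receptor, and Tslp were also higher in SMCs (log2 fold changes -1.91 and -1.46), as was Il18bp, which encodes a soluble inhibitor of IL-18 (2.08 ± 1.12 and 11.3 ± 3.78 FPKM, log2 fold change -2.03, limma q = 0.00432). In pericytes Il16, a CD4 ligand, had 35.7 ± 7.32 FPKM against 4.82 ± 1.37 FPKM in SMCs (SD, n = 4; log2 fold change 2.67, limma q = 2.2e-04), Il4 had 3.49 ± 2.00 against 0.102 ± 0.203 FPKM (log2 fold change 1.93, limma q = 0.00504), and Ebi3, a subunit of IL-27 and IL-35, had a log2 fold change of 1.06. Il6 and the IL-6 binding chain Il6ra were thus higher in different groups.

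**Figure D5:**
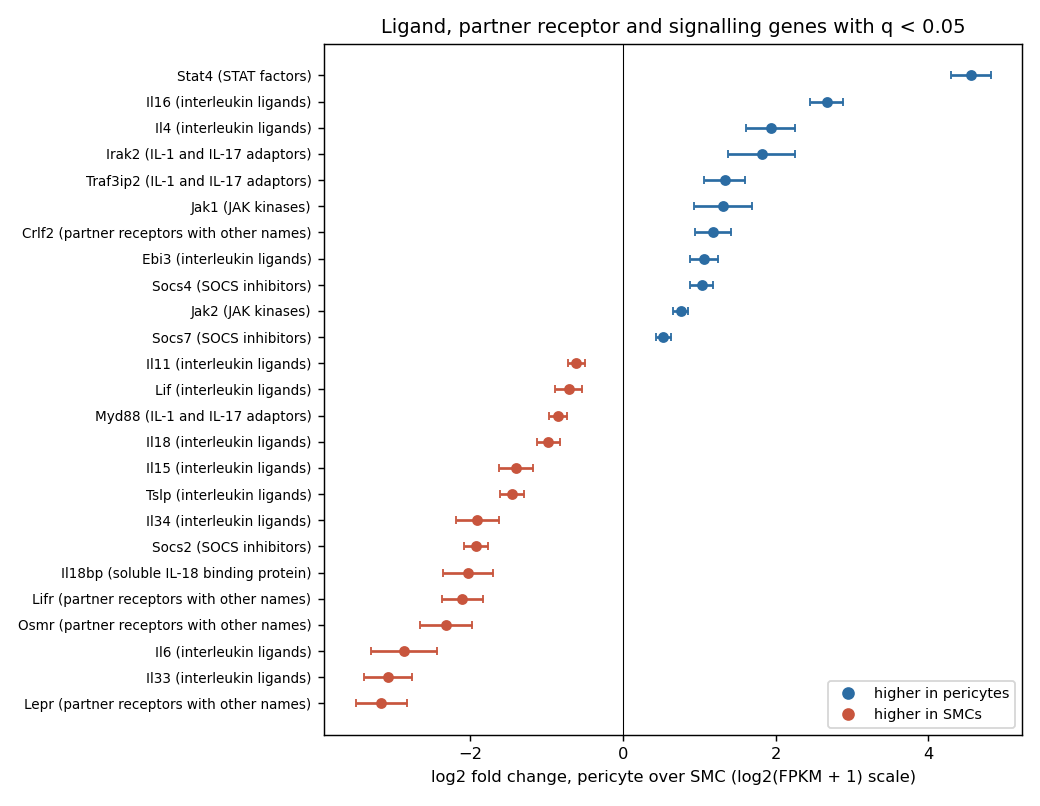
Log2 fold change (pericyte over SMC, log2(FPKM + 1) scale, bars of 1 SE from limma) of partner receptors, ligands and signaling genes with a q value below 0.05, with the list of each gene in brackets and 2 genes that passed not drawn. Stat4 has the highest value, at 4.56, and Lepr the lowest, at -3.16.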

How the data were processed

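RNA of sorted pericytes and SMCs (4 libraries each) was amplified with a SMART-Seq v4 kit for ultra-low input and built into libraries with the Nextera XT kit. The authors checked reads with FastQC and aligned them to NCBI Build 37 with Bowtie2 and TopHat and an Ensembl annotation. The authors deposited FPKM per gene, the unit used here. The labels also name a table of raw counts, which was not used here. The program that computed FPKM and its use of strand are not given in the sources used here. FPKM alone hold no read numbers, so no counting error is given.

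Groups were taken from the sample titles. FPKM were used as log2(FPKM + 1) with no filter except FPKM above 0 in at least 1 library, which left 27414 of 37979 genes. The test was that of limma (version 3.58.1, R 4.3.3; lmFit and eBayes, two-sided, Benjamini-Hochberg adjustment), checked on simulated data. P-values measure the spread between libraries of pooled sorts. Python 3.11.15 made the tables and plots, with pandas 2.3.3, numpy 2.4.6 and matplotlib 3.10.9. Positions, overlaps and coding sequences came from GENCODE version M1 and start site sequences from RefSeq. All members were named, those with a mean of at least 1 FPKM with values, and up to 4 genes for each pathway list and direction with the largest change. Some genes of these lists are not reported here. The members, receptor classes, pathway lists and marker lists were chosen with earlier results of these data known. The settings tried besides were 0.1 as pseudocount, keeping genes that reach 1 FPKM in 4 or more libraries, all listed genes, quantile, TPM and median-ratio scaling, a replicate block, an intensity trend and leaving out each library. Replicates 1 and 2 against 3 and 4 as a covariate was added after seeing the data.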

Additional observations from a re-analysis of the deposited data

Results flagged for a closer look

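Among the 33 members with a mean of at least 1 FPKM in a group, the values on the log2 scale were checked for libraries that stand apart. In 6 members, 1 library of a group stood apart from the other 3 by more than Dixon's limit for 4 values, which chance exceeds in about 1 in 20 groups. Pericyte replicate 2 was the low library for 3 of them, with 12.03 FPKM for Il6st, 3.97 FPKM for Il1rap and 0.518 FPKM for Il1rl2. Its FPKM sum was also the highest of all libraries, and the part of this in the values was not tested. Pericyte replicate 3 was the high library for Il10rb, at 40.5 FPKM. SMC replicate 1 was the high library for Il11ra1, at 505 FPKM, and SMC replicate 4 was the high library for Il2ra, at 0.661 FPKM.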

How the results depend on the processing

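Of the 23 members that passed, 21 kept their call in every one of 17 other settings in which they were tested, and none changed direction. Il1rl2 lost its call in 9 settings (limma q from 0.00897 to 0.101 over all) and Il17rc only with the replicate number as a block (limma q = 0.0553). The count of SMC-enriched members was 2, and it became 4 with a pseudocount of 0.1, 1 with the replicate block, and 1 to 3 with a library left out. It was 1 without pericyte replicate 3, SMC replicate 3 or SMC replicate 4. Pericyte-enriched members numbered 14 with a pseudocount of 0.1. With a library left out, members higher in pericytes numbered 15 to 17, members higher in SMCs 7 to 8, and pericyte-enriched members 11 to 12, while the 12 lymphoid and 5 stromal calls kept their numbers.

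Members that had not passed gained a call in 5 cases. These were Il4ra with the block (limma q = 0.0315) and the covariate, Il17ra with the block (limma q = 0.0210), the covariate, the filter and without pericyte replicate 2, Il6st with the filter and the covariate, Il17re without SMC replicate 3, and Il5ra without pericyte replicate 2. Changes of sign occurred in 4 genes near 0 that never passed. Il20ra had -0.0146 with a pseudocount of 0.1 and -0.00959 with quantile scaling, and -0.0779 to 0.0733 with a library left out. Il1rn had -0.12 with TPM scaling and -0.27 to 0.43 with a library left out. Il28ra ran from -0.24 to 0.13 and Il1rap from -0.34 to 0.0242 with a library left out. TPM scaling moved the median log2 fold change over genes that average 1 FPKM or more from 0.05 to -0.16. The causes were not tested.

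Same-numbered pericyte and SMC libraries had deviations from the mean of their group that correlated at 0.327 on average across 13612 genes (0.0794 to 0.474), with 1 of the 4 under 0.1, so the numbers were not taken as pairs, and 5 of 8 libraries correlated best with their own number. With the replicate block, 21 of the 23 calls remained. The FPKM used here give no number of reads, and the raw counts that the labels name were not used. This limits the 9 members below 1 FPKM.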
